A study of Mus musculus with 6 samples.

Results

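The 10 genes described here belong to the integrated stress response, and they were followed in activated CD8 T cells in which KLF2 was maintained. The genes were *Nupr1*, *Trib3*, *Ddit3*, *Ddit4*, *Atf3*, *Atf4*, *Atf5*, *Chac1*, *Sesn2* and *Asns*. They were read from all probe sets that the array annotation ties to 1 of these genes and to no other gene, which gave 17 of the 45037 probe sets tested and 10 of the 18194 genes. *Nupr1* and *Trib3* headed the list because they were already known to be high in this comparison. The members were thus chosen by values of GFP-KLF2 against evGFP arrays, and these values are given as a description.

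Cytotoxic T lymphocytes (CTL) were made from spleen cells of C57BL/6 mice aged 8 to 12 weeks that carry the P14 transgenic T cell receptor, which recognises a peptide of lymphocytic choriomeningitis virus (LCMV). The GFP-KLF2 group (n = 3 arrays) had been transduced by retrovirus with KLF2 joined to green fluorescent protein, and the evGFP group (n = 3 arrays) with the empty GFP vector. All cells of both groups were stimulated with peptide for 48 h, transduced at 18 h, kept in interleukin-2 for a further 48 h per the labels, and sorted for GFP. RNA was read on Affymetrix mouse 3' expression arrays, and the question was what changes in CTL that do not lose KLF2. A legend of the study gives a longer time in interleukin-2 than the labels do. The labels number the arrays of each group as biological replicates 1 to 3 but do not name the animals behind them, so that p-values measure the spread between these cultures. The construct lacks the 3' UTR that the *Klf2* probe sets read, so the arrays hold no check of the group labels through *Klf2* itself.

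All values are log2 of the RMA intensity, a normalised brightness of each probe set, and all tests are limma's moderated test with Benjamini-Hochberg adjustment over 45037 probe sets. A probe set passed when its adjusted p was under 0.046, and a gene was represented by its brightest probe set. The arrays correlated at 0.993 to 0.996 within groups and at 0.982 to 0.99 between them, and their medians lay between 5.64 and 5.67, which places the dim end of the scale. CD8 T cell markers were bright, with a summed level of 15.96 to 16.02 in GFP-KLF2 CTL and 15.90 to 16.00 in evGFP CTL over 8 of 9 listed genes, and 2 of them, *Prf1* (perforin, log2 fold change 2.52) and *Cd8b1* (0.45), passed as higher. The dimmer *Prf1* probe set did not pass (log2 fold change -0.03, adjusted p = 0.894). It lay near the array medians, with means of 5.90 in GFP-KLF2 CTL and 5.93 in evGFP CTL. None of the measured markers of B cells, myeloid cells, granulocytes and mast cells, NK cells, or erythroid cells and megakaryocytes passed with limma (5, 8, 6, 3 and 6 genes, of which 2 B cell markers and none of the others were higher at an unadjusted p under 0.05). The B cell markers summed to 8.15 to 8.70 in GFP-KLF2 CTL and 8.14 to 8.28 in evGFP CTL. The NK cell markers were brighter, at 12.20 to 13.16 in GFP-KLF2 CTL and 11.72 to 12.61 in evGFP CTL. Yet 2 of these 3 genes had mean levels below the array medians. The sums of the myeloid, granulocyte and mast cell, and erythroid and megakaryocyte markers lay between 7.11 and 8.80. The 4 CD4 T cell markers summed to 8.54 to 8.68 in GFP-KLF2 CTL and 8.23 to 8.41 in evGFP CTL, and *Zbtb7b* alone passed as higher (0.45, adjusted p = 0.0429, lost when any array but evGFP replicate 3 was left out, at up to 0.128). The dimmer *Zbtb7b* probe set gave 0.23 and did not pass (adjusted p = 0.128). The part of such cells in the results below was not tested.

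The integrated stress response is a brake on protein synthesis that cells pull when amino acids run short, when unfolded proteins build up in the endoplasmic reticulum, or when double-stranded RNA or haem shortage is sensed. Each signal has its own kinase, and all of these phosphorylate the translation factor eIF2, which slows most translation while letting ribosomes reach the coding sequence of *Atf4*. ATF4 then switches on genes for amino acid supply, redox balance and, under lasting stress, death. Because ATF4 and ATF5 are controlled in large part at translation, their mRNA, which is what an array measures, does not read the amount of protein. In T cells the response is best known for sensing amino acid supply during activation.

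ATF4 binds together with C/EBP proteins to letters close to TGATGNAA, letters that were looked for in the members. Several members are known ATF4 targets, *Asns*, *Atf3*, *Chac1* and *Trib3* among them, so that the share of matches is given as a description. RefSeq windows of 300 bases (250 before to 50 after each start site, build GRCm38.p6) held TGATGNAA on either strand in 5 of the 10 members, against 3.97% of all 32851 windows. The 5 matches are printed to show that the same pattern, with any base at N, stands in members that went different ways. The match is in capitals, and each line reads 5′ to 3′ on the strand of the gene.
Nupr1, chr7:126625562-126625591, minus strand, match at -110 to -103: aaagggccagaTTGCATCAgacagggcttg
Trib3, chr2:152344028-152344057, minus strand, match at 15 to 22 after the start: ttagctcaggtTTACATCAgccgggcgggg
Asns, chr6:7693214-7693243, minus strand, match at -23 to -16: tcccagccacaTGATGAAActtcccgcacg
Atf3, chr1:191183425-191183454, minus strand, match at -110 to -103: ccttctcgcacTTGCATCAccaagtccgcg
Chac1, chr2:119351038-119351067, plus strand, match at -193 to -186: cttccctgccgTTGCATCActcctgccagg
*Nupr1*, *Atf3* and *Chac1* carry the same 8 letters. Read on the same strand, *Trib3* and *Asns* differ from them and from each other at the N base. *Asns* has its match on the written strand, while the other 4 have theirs on the reverse strand. Of the 5 members with the match, 2 passed as higher, 1 as lower and 2 did not pass, while the 5 without it in their windows (*Ddit3*, *Ddit4*, *Atf4*, *Atf5* and *Sesn2*) did not pass. Bases outside the windows were not searched, so these 5 may hold the letters elsewhere. With so few genes, chosen with their values known, this split is a description.

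Among all genes measured, 465 had TGATGNAA in a window, and 9.25% of these passed as higher and 5.16% as lower in GFP-KLF2 CTL, against 6.44% and 8.78% of the 14368 measured genes with any window. These shares include the members and are a description. The short ATF/CREB letters TGACGT stood in 1 of 10 members, *Atf3*, against 7.51% of windows. The spaced ER stress element was found in 0 of 10, against 0.119% of windows. The letters CACCC, which KLF proteins bind, stood in 7 of 10 members (*Nupr1*, *Trib3*, *Ddit3*, *Ddit4*, *Atf3*, *Atf4* and *Atf5*), against 57.5% of windows, so that a match to so short a run is common. For all of these letters the members are counted by gene and the shares by window, and a gene can have more than 1 window. By gene, CACCC stood in 9522 and TGACGT in 1583 of the 14368 measured genes with any window. The 250 bases before the start of *Nupr1*, the member with the largest difference, hold 3 copies of CACCC read on the reverse strand (GGGTG, in capitals, with first bases at -200, -169 and -41) beside the ATF4 match at -110.
Nupr1, chr7:126625471-126625720, minus strand: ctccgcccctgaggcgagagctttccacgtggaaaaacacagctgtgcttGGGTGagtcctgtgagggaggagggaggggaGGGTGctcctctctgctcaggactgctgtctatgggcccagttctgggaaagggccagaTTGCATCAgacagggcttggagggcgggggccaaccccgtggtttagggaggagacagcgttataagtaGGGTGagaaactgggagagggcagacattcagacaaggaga
A match is only a run of letters, and binding at these windows was not measured.

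Of the 10 members, *Nupr1* and *Trib3* passed as higher in GFP-KLF2 CTL, *Asns* passed as lower, and the other 7 did not pass. Over all 18194 genes 6.22% passed as higher and 8.35% as lower. The median log2 fold change of the 10 members was 0.18, against -0.01 over all genes. By probe set, 3 of 17 passed as higher and 2 as lower, against 4.76% and 6.39% of all probe sets. The arrays of the groups did not overlap for the same 3 genes, with 2 higher and 1 lower in GFP-KLF2 CTL, against 14.3% and 20.6% of all genes. With the replicate number as a block the counts stayed at 2 and 1, against 8.58% and 12.1% of all genes. As the members were chosen with these results known, nothing is read from these counts.

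**Figure D1:**
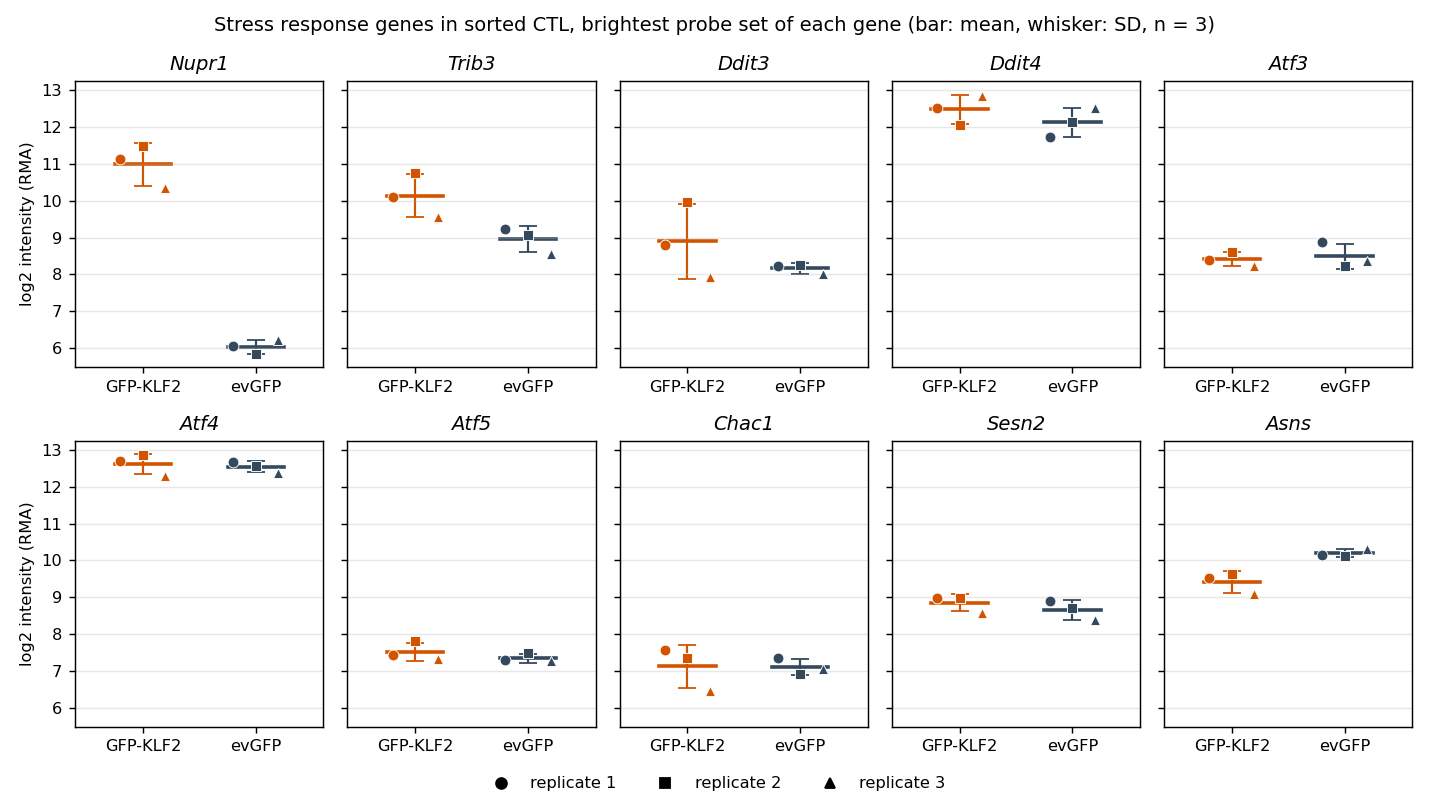
Log2 RMA intensity of the brightest probe set of each of the 10 genes on each array, GFP-KLF2 CTL on the left of each panel and evGFP CTL on the right, with replicates 1 to 3 as circle, square and triangle and bars for the mean and SD (n = 3). The GFP-KLF2 arrays lie apart from and above the evGFP arrays for *Nupr1* and *Trib3* and below them for *Asns*, and the groups overlap in the other 7 panels.

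*Nupr1* encodes a small, stress-induced chromatin-associated protein, first described in injured pancreas and needed in several cell types to survive metabolic and endoplasmic reticulum stress. Its brightest probe set (1419665_a_at) read 11.13, 11.50 and 10.35 in GFP-KLF2 CTL of replicates 1 to 3, against 6.05, 5.84 and 6.23 in evGFP CTL. The evGFP arrays lay a little above the array medians, whereas all 3 GFP-KLF2 arrays lay far above them, with replicate 3 the lowest. The log2 fold change was 4.96 (SE 0.27, 95% interval 4.33 to 5.58, adjusted p = 0.000212), a 31.0-fold higher intensity, and it ranked 3 among the rises of 18194 genes. In RNA from a bulk of sorted cells, a change in the number of cells that express a gene and a change in RNA per cell cannot be told apart.

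The other *Nupr1* probe set (1419666_x_at) read 10.72, 11.08 and 9.88 in GFP-KLF2 CTL, against 6.36, 6.19 and 5.99 in evGFP CTL. The arrays kept their order in GFP-KLF2 CTL, with replicate 2 the highest and replicate 3 the lowest, and the groups again lay far apart. Its log2 fold change was 4.38 (SE 0.28, adjusted p = 0.000431), or 20.8-fold. Within same-numbered pairs the brightest probe set differed by 5.08, 5.66 and 4.12, so that the smallest pair difference, that of replicate 3, was still most of the mean difference. The relative of this gene on the array, *Nupr1l*, read 5.21, 5.26 and 5.25 in GFP-KLF2 CTL and 5.18, 5.19 and 5.23 in evGFP CTL, all below the array medians, and did not pass (adjusted p = 0.817).

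*Trib3* encodes a pseudokinase of the Tribbles family that ATF4 and CHOP induce, and that in turn binds ATF4 and the kinase AKT. Its brightest probe set (1456225_x_at) read 10.11, 10.76 and 9.57 in GFP-KLF2 CTL, against 9.25, 9.07 and 8.56 in evGFP CTL. It was well above the array medians in both groups, and the lowest GFP-KLF2 array stood only a little above the highest evGFP array. The log2 fold change was 1.19 (SE 0.30, 95% interval 0.48 to 1.89, adjusted p = 0.0447), a 2.27-fold higher intensity that lay just inside the threshold. The dimmer probe set (1426065_a_at) read 9.91, 10.51 and 9.30 in GFP-KLF2 CTL, against 9.15, 8.82 and 8.46 in evGFP CTL. Its groups did not overlap either, but its log2 fold change of 1.10 (SE 0.30) lay just outside the threshold, with adjusted p = 0.0574.

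The *Trib3* arrays moved with their replicate number, as replicate 3 was the lowest of both groups. Differences within pairs were 0.86, 1.68 and 1.01. That all 3 were above 0 follows from groups that did not overlap. With the replicate number as a block the adjusted p was 0.00604 at the brightest probe set and 0.0118 at the dimmer one, which then passed. The call at the brightest probe set changed when arrays were left out, whereas the direction could not, as the groups did not overlap. Leaving out 1 array gave a log2 fold change of 0.88 to 1.48, and the call was kept without GFP-KLF2 replicate 3 (adjusted p = 0.0199) and lost without each of the others: GFP-KLF2 replicate 1 (0.114) or 2 (0.0911), and evGFP replicate 1 (0.0768), 2 (0.109) or 3 (0.112). The relatives *Trib1* (log2 fold change 0.21, adjusted p = 0.283) and *Trib2* (0.31, 0.679) did not pass.

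**Figure D2:**
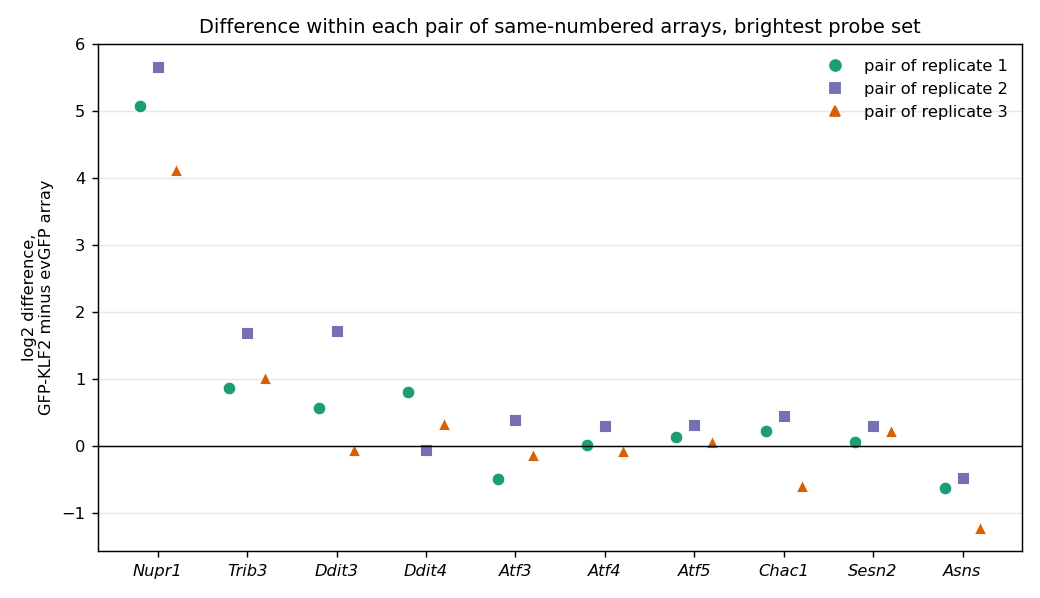
Difference in log2 intensity between the GFP-KLF2 and the evGFP array of the same replicate number, for the brightest probe set of each gene, with 1 point for each of the 3 pairs and a line at 0. All 3 pairs lie above 0 for *Nupr1*, *Trib3*, *Atf5* and *Sesn2* and below 0 for *Asns*, while the other 5 genes have pairs on both sides. For *Nupr1*, *Trib3* and *Asns* the shared side of the pairs follows from groups that do not overlap.

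*Ddit3* encodes CHOP, the transcription factor that carries a lasting stress response towards death and that acts with ATF4 on *Trib3* and *Chac1*. Its brightest probe set (1417516_at) read 8.80, 9.98 and 7.95 in GFP-KLF2 CTL, against 8.23, 8.27 and 8.01 in evGFP CTL. GFP-KLF2 replicates 1 and 2 stood above and replicate 3 just below all evGFP arrays, so the groups overlapped and the SD was 1.02 in GFP-KLF2 CTL and 0.14 in evGFP CTL. The log2 fold change of 0.74 (95% interval -0.28 to 1.76) did not pass, with adjusted p = 0.372. Without GFP-KLF2 replicate 2 the difference was 0.20, and without replicate 3 it was 1.22 (adjusted p = 0.0638). The dimmer probe set (1443897_at) read 6.62, 7.04 and 6.39 in GFP-KLF2 CTL and 6.74, 6.40 and 6.53 in evGFP CTL, with replicate 2 again the highest and a log2 fold change of 0.13 (adjusted p = 0.735).

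*Atf4*, the hub of the response, did not pass at any of its 3 probe sets. It read 12.69, 12.86 and 12.30 in GFP-KLF2 CTL, against 12.69, 12.56 and 12.38 in evGFP CTL (1448135_at). The groups overlapped throughout, and the log2 fold change of 0.08 had a 95% interval of -0.28 to 0.43 (adjusted p = 0.83), so that a 2-fold change in either direction lay outside the interval at this probe set. The probe set 1438992_x_at gave 0.13 (adjusted p = 0.747), and 1439258_at, which read 5.19 to 5.55 over all 6 arrays and so lay below the array medians, gave 0.16 (0.397). The array says nothing of ATF4 protein.

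*Atf5*, a factor related to ATF4 that is best known for the stress response of mitochondria, read 7.42, 7.80 and 7.32 in GFP-KLF2 CTL, against 7.29, 7.49 and 7.26 in evGFP CTL. The groups overlapped while each pair was a little higher in GFP-KLF2 CTL, and the log2 fold change was 0.17 (95% interval -0.15 to 0.48, adjusted p = 0.541). *Atf3*, an immediate stress factor that is induced by ATF4 and by many other signals, read 8.39, 8.61 and 8.23 in GFP-KLF2 CTL, against 8.88, 8.23 and 8.37 in evGFP CTL. Its highest array was evGFP replicate 1, and the log2 fold change was -0.08 (95% interval -0.50 to 0.33, adjusted p = 0.841). For *Atf3* as for *Atf4*, the interval left out a 2-fold change in either direction.

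*Chac1*, which encodes an enzyme that degrades glutathione and is induced through ATF4 and CHOP, read 7.57, 7.34 and 6.46 in GFP-KLF2 CTL, against 7.35, 6.91 and 7.06 in evGFP CTL. GFP-KLF2 arrays were both the highest and the lowest of the 6. The log2 fold change was 0.02, with a 95% interval of -0.62 to 0.66 (adjusted p = 0.979), and the pair of replicate 3 was lower in GFP-KLF2 CTL by 0.60. Its paralog *Chac2*, which is not known as a stress-induced gene, gave 0.12 (adjusted p = 0.767).

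*Ddit4* and *Sesn2* encode brakes on the growth kinase mTORC1, which *Ddit4* (REDD1) applies after hypoxia, glucocorticoids or energy stress and *Sesn2* when leucine is scarce. *Ddit4* read 12.53, 12.07 and 12.86 in GFP-KLF2 CTL, against 11.73, 12.13 and 12.53 in evGFP CTL. It was the single member of the 10 whose GFP-KLF2 arrays had replicate 3 the highest and replicate 2 the lowest, and its groups overlapped. The log2 fold change was 0.36 (95% interval -0.22 to 0.93, adjusted p = 0.455).

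*Sesn2* read 8.97, 8.99 and 8.59 in GFP-KLF2 CTL, against 8.91, 8.70 and 8.37 in evGFP CTL (1451599_at). The pairs were higher in GFP-KLF2 CTL by 0.06, 0.30 and 0.21 while the groups overlapped, and the log2 fold change was 0.19 (adjusted p = 0.561). The dimmer probe set (1425139_at) gave 0.28 (adjusted p = 0.456), and it too was higher in 3 of 3 pairs, by 0.22, 0.25 and 0.36. The relatives *Sesn1* (-0.24, adjusted p = 0.13), *Sesn3* (0.09, 0.81) and *Ddit4l* (-0.37, 0.311) did not pass, so that of the 7 relatives of the members measured 0 passed with limma, with or without the block, and 1 (*Sesn1*) had an unadjusted p under 0.05.

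*Asns* encodes asparagine synthetase, a standard target of ATF4 that makes asparagine when the amino acid is short. It was the member that went the other way, and it read 9.51, 9.64 and 9.09 in GFP-KLF2 CTL, against 10.14, 10.13 and 10.32 in evGFP CTL (1451095_at). All GFP-KLF2 arrays lay below all evGFP arrays, with GFP-KLF2 replicate 3 the lowest. The log2 fold change was -0.78 (SE 0.15, 95% interval -1.12 to -0.44, adjusted p = 0.0157), a 1.72-fold lower intensity that stayed under 2-fold and ranked 347 among the falls of all genes.

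The other *Asns* probe set (1433966_x_at) read 9.36, 9.38 and 8.78 in GFP-KLF2 CTL, against 9.96, 9.96 and 10.19 in evGFP CTL. Both probe sets thus showed the same order of arrays, and this one gave -0.86 (SE 0.17, adjusted p = 0.0182), or 1.82-fold lower. Within pairs the brightest probe set was lower in GFP-KLF2 CTL by 0.63, 0.49 and 1.23. The shared direction of the pairs follows from groups that did not overlap. Leaving out 1 array kept it between -0.90 and -0.62, and the call was lost without evGFP replicate 1 (adjusted p = 0.0487) or evGFP replicate 2 (0.0532). At the dimmer probe set the call was lost without evGFP replicate 1 (0.0529), 2 (0.0578) or 3 (0.0494).

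**Figure D3:**
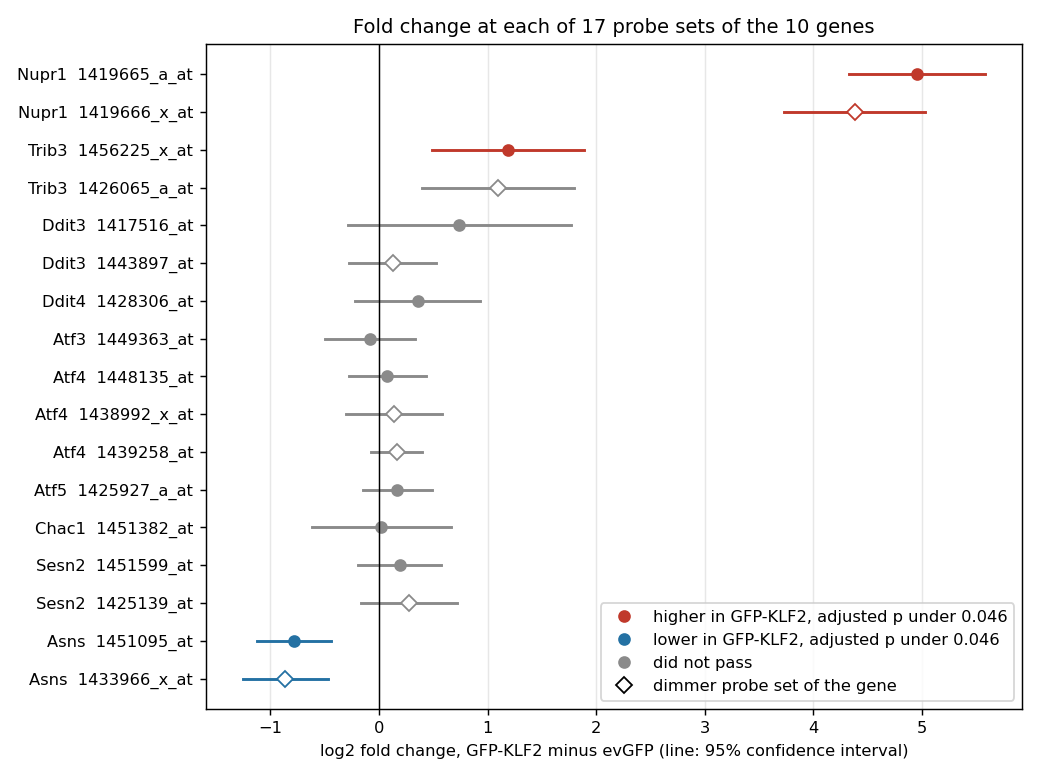
Log2 fold change, GFP-KLF2 minus evGFP, with its 95% confidence interval at each of the 17 probe sets of the 10 genes, with filled circles for the brightest probe set of a gene and open diamonds for dimmer ones. Both *Nupr1* probe sets stand apart near 4.96 and 4.38, the *Trib3* pair lies near 1.19 and 1.10 on either side of the threshold, both *Asns* probe sets lie near -0.78 and -0.86, and the intervals of the other 11 cross 0.

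Within the GFP-KLF2 group, replicate 2 was the highest array for 8 of the 10 genes and replicate 3 the lowest for 9 of 10, against 34.6% and 33.5% of all genes. In the evGFP group no array took such a share, as replicate 1 was the highest for 5 members and replicate 3 the lowest for 5, against 37.2% and 42.2% of all genes. The order was not particular to the members, as GFP-KLF2 replicate 2 was the highest for 9 and replicate 3 the lowest for 11 of 11 aminoacyl-tRNA synthetases, and for 11 and 12 of 24 other ATF4 targets. The counts were 8 and 6 of 14 bZIP partners and 7 and 5 of 11 p53 targets. Shares were smaller in other lists, with 1 and 2 of 10 hypoxia-induced genes, 3 and 2 of 8 mitochondrial stress genes and 7 and 6 of 19 ER chaperones. *Asns* followed most other members, with replicate 2 the highest and replicate 3 the lowest in GFP-KLF2 CTL, although its group mean was lower. These orders rest on 3 arrays of 1 group and were not tested.

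The genes whose profile over the 6 arrays was most like that of *Nupr1* were sought by the root mean square difference of log2 values. Each gene was centred on its own mean but not scaled. This measure thus largely picks genes with a fold change near that of the gene compared, here and for *Trib3* below. Shared regulation was not tested. The nearest to *Nupr1* are given first. They were *Upp1* (uridine phosphorylase, difference 0.25), *Dsp* (desmoplakin of desmosomes, 0.38) and *Serpinb9b* (a serpin, 0.43), with log2 fold changes of 4.75, 5.65 and 5.15. *Upp1* read 11.57, 11.49 and 10.07 in GFP-KLF2 CTL, against 6.15, 6.19 and 6.53 in evGFP CTL. It thus shared the low GFP-KLF2 replicate 3 of *Nupr1*, whereas *Serpinb9b*, at 11.16, 10.76 and 10.90 in GFP-KLF2 CTL and 5.51, 5.92 and 5.94 in evGFP CTL, did not.

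For *Trib3* the nearest profiles were those of *Slc2a6* (a glucose transporter family member, difference 0.11), *Mest* (an imprinted gene, 0.12) and *Prr5l* (a partner of the mTORC2 kinase complex, 0.14). *Slc2a6* read 7.44, 7.80 and 6.82 in GFP-KLF2 CTL, against 6.28, 6.14 and 5.64 in evGFP CTL, and thus showed the same low replicate 3 in both groups. Its log2 fold change was 1.33 (adjusted p = 0.0189, lost without GFP-KLF2 replicate 1 or 2 or evGFP replicate 2, at up to 0.0671), and that of *Prr5l* was 1.36 (0.0271, lost without GFP-KLF2 replicate 1 or 2 or evGFP replicate 2 or 3, at up to 0.077). *Mest* did not pass at 1.06 (0.0574) and did with the block (0.0111). None of these 6 genes is a standard member of the integrated stress response.

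The other genes of the pathway and of its neighbours were taken from lists of textbook roles, with 118 measured genes of 125 listed. The neighbours include the p53, hypoxia and glucocorticoid programmes described below. Of the 118 genes 15 passed as higher and 15 as lower in GFP-KLF2 CTL, against 6.22% and 8.35% of all genes. The counts were 7 and 6 without evGFP replicate 2, 8 and 9 without evGFP replicate 1, 12 and 8 without GFP-KLF2 replicate 1, and 12 and 9 without GFP-KLF2 replicate 2. Among the higher genes *Perp*, *Cdkn1a*, *Slc2a1*, *Tsc22d3*, *Klf9* and *Fkbp5* came only from the p53, hypoxia and glucocorticoid lists. Among the lower genes *Gtse1*, *Ei24* and *Ccng1* did. Of the 42 dimmer probe sets of 17 called genes named by rule from these lists, 26 passed in the direction of the brightest, 0 in the other and 16 did not pass with limma, among them 3 of 4 for *Gcn1*, 3 of 4 for *Hspa9*, 2 of 3 for *Eprs* and the single one for *Sars* and for *Pdia6*. Upstream, 1 of 13 eIF2 kinases, phosphatase subunits, GCN2 regulators and eIF2B subunits passed as higher and 3 as lower (median -0.23). The one higher was *Eif2ak3*, which encodes PERK, the eIF2 kinase of the endoplasmic reticulum. It read 11.68, 11.56 and 11.25 in GFP-KLF2 CTL, against 10.79, 10.83 and 10.52 in evGFP CTL (0.78, SE 0.13, adjusted p = 0.0121). Those lower were *Eif2b3* and *Eif2b5*, subunits of the exchange factor that recharges eIF2 (-0.58, adjusted p = 0.00739, and -0.38, 0.0363), and *Gcn1*, which activates the amino acid sensor kinase GCN2 (-0.39, 0.0224). *Gcn1* lost its call when any array but evGFP replicate 3 was left out (up to 0.0768), and *Eif2b5* when any but GFP-KLF2 replicate 3 was (up to 0.103). *Eif2ak4*, GCN2 itself, gave -0.82 and did not pass (0.061), and neither did its inhibitor *Impact* (-0.54, 0.0558), while both passed as lower with the block (0.0115 and 0.0148). *Ppp1r15a* (GADD34), the stress-induced subunit that ends the response, gave 0.03 (0.898).

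Of 14 C/EBP and other bZIP partners of the ATF factors, 1 passed as higher, *Creb3* (0.56, adjusted p = 0.00741), and 1 as lower, *Atf6b* (-0.57, 0.00585), with a median of 0.09. Of 24 other ATF4 targets, 3 passed as higher and 1 as lower, with a median of 0.01. *Ndrg1*, which hypoxia also induces, read 10.94, 10.66 and 10.22 in GFP-KLF2 CTL, against 9.04, 9.22 and 9.22 in evGFP CTL (1.45, SE 0.17, adjusted p = 0.00331). The other 2 were *Sqstm1* (p62, 1.06, 0.0129) and *Map1lc3b* (LC3B, 0.54, 0.013), both of them autophagy genes with further regulators. Their calls were lost without evGFP replicate 1 or 2, at up to 0.0556 and 0.0522. The one lower was *Xpot*, an exporter of tRNA (-0.50, 0.0127, lost without evGFP replicate 2 at 0.0556). *Pck2*, the mitochondrial PEPCK, gave -0.81 and passed with the block alone (0.0611 without it and 0.019 with it).

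Of 11 aminoacyl-tRNA synthetases, several of them ATF4 targets, 3 passed as higher and 1 as lower (median -0.15). *Aars* read 11.80, 12.03 and 11.47 in GFP-KLF2 CTL, against 10.94, 10.91 and 10.98 in evGFP CTL (0.82, adjusted p = 0.0109, lost without evGFP replicate 2 at 0.049). *Sars* (0.54, 0.0351) and *Gars* (0.32, 0.0405) passed as higher and *Eprs* as lower (-0.43, 0.0127). *Sars* and *Gars* lost their calls when any array but GFP-KLF2 replicate 3 was left out (up to 0.115 and 0.126), and *Eprs* lost it without evGFP replicate 1 or 2, at up to 0.0531. The other 7 did not pass.

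The branches next to the eIF2 arm were counted too. Of 19 ER chaperones and other genes of the unfolded protein response, 1 passed as higher, *Dnajb9* (0.83, adjusted p = 0.0211, lost without evGFP replicate 1 or 2 at up to 0.0755), and 3 as lower, *Pdia6* (-0.63, 0.00848), *Sdf2l1* (-0.43, 0.013, lost without GFP-KLF2 replicate 1 or 2 or evGFP replicate 2 at up to 0.0557) and *Canx* (-0.30, 0.0405, lost without any 1 of the 6 arrays at up to 0.135), with a median of -0.14. With the block *Ern1*, the sensor IRE1, also passed as higher (0.69, adjusted p = 0.118 without the block and 0.00378 with it) and *Manf* as lower (-0.35, 0.0476 and 0.0374). *Hspa5* (BiP), the standard reporter of this response, gave -0.18 (0.174). Of 8 mitochondrial stress genes 0 passed as higher with limma (0 at an unadjusted p under 0.05 too) and 3 as lower, the chaperones *Hspd1* (-0.62, 0.00467), *Hspa9* (-0.50, 0.0076) and *Hspe1* (-0.46, 0.0199), with a median of -0.16. *Hspe1* lost its call without GFP-KLF2 replicate 1 or 3 or evGFP replicate 1 or 2, at up to 0.0692.

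Members also answer to p53 (*Sesn2*), to hypoxia (*Ddit4*) and to glucocorticoids (*Ddit4*), so other genes of these programmes were counted beside them. Of 11 p53 targets 2 passed as higher, *Perp* and *Cdkn1a*. *Perp* gave 1.66 (adjusted p = 0.0107, lost without evGFP replicate 2 at 0.0464). *Cdkn1a* gave 0.65 (0.0355, lost when any array but evGFP replicate 2 was left out, at up to 0.109). This was a 1.57-fold change, whereas the study also required at least 2-fold and reports no regulation of *Cdkn1a* on its arrays. The 3 that passed as lower were *Gtse1* (-0.70, 0.0127, lost without GFP-KLF2 replicate 1 or 2 or evGFP replicate 2 at up to 0.0549), *Ei24* (-0.59, 0.00748) and *Ccng1* (-0.55, 0.0413, lost when any array but evGFP replicate 3 was left out, at up to 0.135), and 5 were lower with the block. Of 10 hypoxia-induced genes 2 passed as higher, *Ndrg1* again and the glucose transporter *Slc2a1* (0.88, 0.0116, lost without evGFP replicate 1 or 2 at up to 0.0502), and 0 as lower with limma, adjusted or not (median 0.31). Of 7 glucocorticoid-induced genes 3 passed as higher, *Tsc22d3* (GILZ, 1.57, 0.00536), *Klf9* (1.29, 0.00174) and *Fkbp5* (1.07, 0.00051), and 0 as lower with limma, adjusted or not (median 0.68), and 4 were higher with the block, *Dusp1* (0.68, adjusted p = 0.0159) being the one added. *Fkbp5* read 12.75, 12.73 and 12.67 in GFP-KLF2 CTL, against 11.68, 11.65 and 11.60 in evGFP CTL, so that its arrays differed less within a group than those of any called member.

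**Figure D4:**
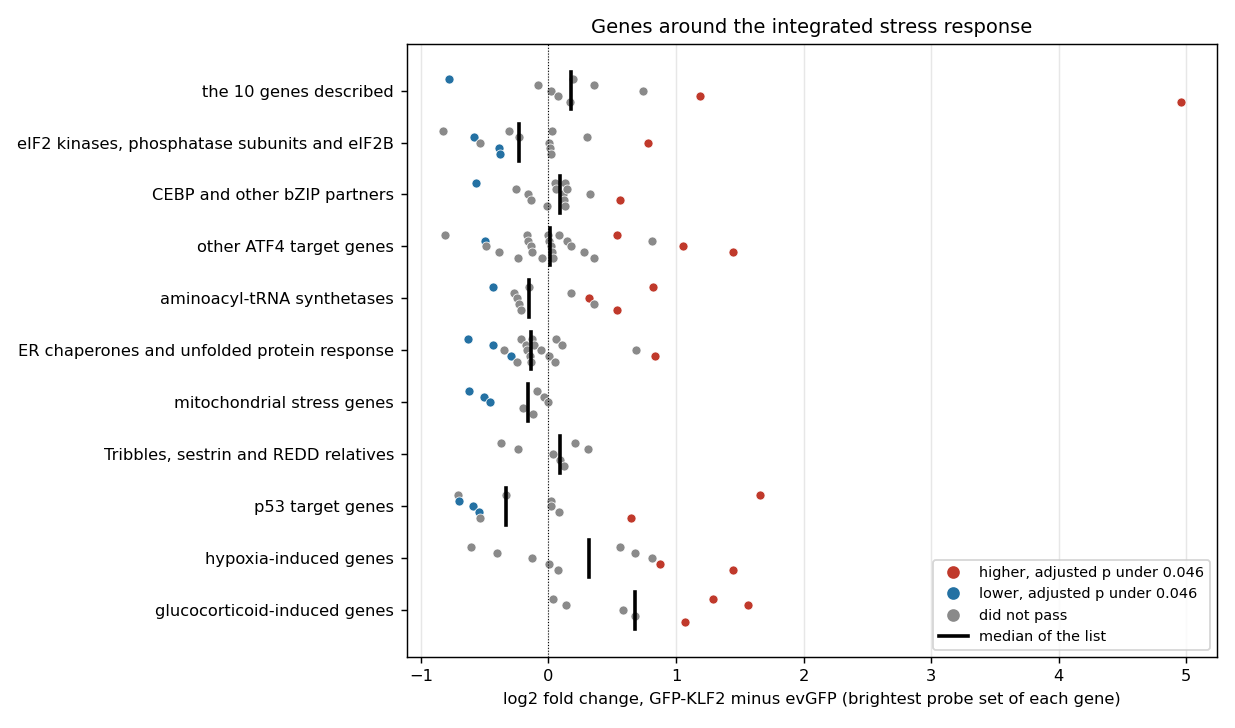
Log2 fold change, GFP-KLF2 minus evGFP, of the brightest probe set of each gene in the 10 members and in 10 lists around them, with 1 point per gene coloured by whether it passed (adjusted p under 0.046) and a bar at the median of each list. *Nupr1* at 4.96 lies far to the right of every other point, the medians of the lists lie between -0.34 and 0.68, and most lists hold points that passed in both directions.

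With 3 arrays in each group an exact permutation test of a single gene cannot give a two-sided p below 0.1, so every test here borrows its spread from all probe sets.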

How the data were processed

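Per the methods and the labels, the authors made the deposited intensity values by RMA (background correction, quantile normalisation and a summary per probe set) from 6 Affymetrix mouse 3' expression arrays. Versions of RMA and limma are not given in the sources used here. The deposited intensities are linear and ran from 5.74 to 33637.8, and their log2 was taken here. Of 45101 probe sets 64 controls were left out. Of the 45037 tested, 34945 are annotated to 1 gene, 932 to several and 9160 to none, and 34741 have a gene in the RefSeq table. The precision of a value is limited by the 3 arrays per group, and RMA pulls all arrays to 1 distribution, so that a shift shared by all genes would not be seen.

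Under R 4.3.3, limma 3.58.1 fitted a constant for each group and gave 2-sided moderated tests and Benjamini-Hochberg adjustment over all probe sets, after a check on simulated data. The methods print the threshold as 0.046%. It was read as 0.046, and 0.00046 was an alternative. Motifs were searched on both strands in RefSeq windows with Python 3.11.15, and figures were drawn with matplotlib 3.10.9.

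The members, the lists and the tests were chosen with earlier results of these data known. The genes named were the 10 members at every probe set, for each list no more than 3 of the genes that passed (those of largest change), and the 3 genes nearest in profile to *Nupr1* and to *Trib3*. *Eif2b5*, *Xpot*, *Gars*, *Canx*, *Ei24*, *Ccng1*, the relatives of members, *Ppp1r15a*, *Hspa5* and the genes named for the block do not come under this rule. They were picked with their values in view.

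Arrays with the same replicate number deviated together from their group means (correlations over probe sets of 0.325, 0.442 and 0.466, against -0.38 to 0.0578 for different numbers), so same-numbered arrays were treated as pairs. The labels do not say what these arrays share, and this was not tested. Alternatives were the replicate block, each array left out, other thresholds, normalisations, filters, array weights, a trended robust prior and other summaries of probe sets. Raw array files were not used here.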

Additional observations from a re-analysis of the deposited data

How the results depend on the processing

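*Nupr1* passed under all 18 alternatives, with a log2 fold change of 4.67 to 5.28. *Trib3* kept its direction in all 18 and passed in 9, and *Asns* kept its direction in all 18 and passed in 14. Most of these alternatives could not change the direction. The fold change of a brightest probe set is the same with the block, other thresholds, dim probe sets left out or the trended robust prior. The groups did not overlap at any probe set of *Nupr1*, *Trib3* or *Asns*. Leaving out an array, array weights or other summaries of probe sets could thus not reverse the direction of these genes. Only the other normalisations could have done so. A pass at 0.05 likewise follows from a pass at 0.046. Of the single probe-set values, 273 kept their side of the threshold, 12 of them with a changed sign, 18 dropped out and 4 came in. Of the members 1 passed as higher, in place of 2, with a trended robust prior (*Trib3* adjusted p = 0.0722), with the mean of all probe sets (0.0465) and without the less specific _x_at and _s_at probe sets (0.0562). With a threshold of 0.00046, members passed 1 higher and 0 lower, the other genes of the pathway and its neighbours 0 and 0, and all genes 31 and 3. With a threshold of 0.046 and a change of at least 2-fold, 2 members were higher and 0 lower, genes of the pathway and its neighbours 6 and 0, and all genes 405 and 130. Of those 6, *Perp*, *Tsc22d3*, *Klf9* and *Fkbp5* came from the p53 and glucocorticoid lists. Leaving out 1 array gave 1 to 2 members higher and 0 to 1 lower, 7 to 14 genes of the pathway and its neighbours higher and 6 to 18 lower, and 556 to 1041 of all genes higher and 591 to 1132 lower. The pairing by replicate number, used as a block, left the members at 2 and 1, moved the dimmer *Trib3* probe set (1.10) past the threshold, and gave 17 genes of the pathway and its neighbours higher and 21 lower. With cyclic loess 1388 genes were higher and 961 lower, so that the share of higher calls was 59.1%, against 42.7%. Members that did not pass changed sign in places, for reasons that were not tested. *Atf3* gave 0.0040 with cyclic loess and 0.0084 with array weights. With 1 array left out *Atf3* ranged from -0.22 to 0.11, *Atf4* from -0.044 to 0.23 (1438992_x_at from -0.021 to 0.35), *Chac1* from -0.21 to 0.35 and *Ddit3* 1443897_at from -0.053 to 0.27. *Nupr1* was dim in evGFP CTL, near the array medians, so its fold rests on a dim value.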
